A study of Mus musculus with 17 samples.

Results

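B2m, H2-Q1, H2-Q2, H2-T24, Psmb9 and Calr are 6 of the 988 genes counted by a targeted mouse immuno-oncology panel, and they were taken as the rows of the count tables that carry these symbols. All 6 encode chains of major histocompatibility complex (MHC) class I molecules or proteins that make their peptides or help to load them. The study compared colon of azoxymethane-treated mice that have mast cells (Kit-B6, on C57BL/6) with colon of mast cell-deficient W-sash mice (Kit-W/sh), at a tumor stage and at a preneoplastic stage. There were 6 Kit-W/sh tumors, 6 Kit-B6 tumors, 2 Kit-W/sh preneoplastic samples and 3 Kit-B6 preneoplastic samples. All groups received azoxymethane, a colon carcinogen of rodents, so no group was free of it. Tumor mice were 32 weeks old and had been given 6 intraperitoneal doses over 6 weeks, with another 18 weeks before they were killed. Preneoplastic mice were 14 weeks old and had been given 3 doses over 3 weeks, with another 3 weeks before they were killed. Stage was therefore tied to age, dose number, waiting time and tissue, and these cannot be told apart. The W-sash allele is an inversion upstream of Kit that leaves the coding sequence intact and also affects cells other than mast cells.

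An MHC class I molecule is a heavy chain paired with the invariant light chain beta-2 microglobulin and a short peptide, shown at the cell surface to CD8 T cells and natural killer cells. Proteasomes cut the peptides from cytosolic proteins, the TAP transporter carries them into the endoplasmic reticulum, and a loading complex that includes calreticulin, calnexin, tapasin and Pdia3 helps the chain to fold and to bind them. In intestinal epithelium class I genes are active at rest and are raised by interferons, and tumors of the colon can carry less of these molecules than normal mucosa.

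Library totals spanned 1049408 to 1262171 counts for Kit-W/sh tumors, 616554 to 1399902 for Kit-B6 tumors, 621141 to 815973 for Kit-W/sh preneoplastic colon and 616009 to 703549 for Kit-B6 preneoplastic colon. Levels are given as CPM (counts scaled to a common library size) after edgeR's TMM scaling, and levels of different genes are not comparable, because amplicons differ in efficiency. The labels did not state that samples of a group came from separate mice, and p-values therefore reflect the variation among the samples as deposited. Names of the deposited tables leave it possible that Kit-B6 tumors 4 and 5 came from 1 mouse, and p-values that count both would then be too small. Without tumor 4, or without tumor 5, 6 of the 6 genes were still called between stages in Kit-B6 and 0 between genotypes in tumors. The library labelled Kit-W/sh tumor 2 held 460 CPM of the mast cell protease gene Cpa3, against 0 to 9.81 CPM in the other 5 Kit-W/sh tumors and 11.3 to 256 CPM in Kit-B6 tumors, which goes against that label. Kit itself ranged over 48.9 to 258 CPM in Kit-W/sh tumors and 93.7 to 473 CPM in Kit-B6 tumors. Epcam, which encodes an epithelial adhesion protein and was the single epithelial marker of 9 listed that the panel measured, was at 22178 to 34604 CPM in the 12 tumors and at 24698 to 30155 CPM in the 5 preneoplastic samples, so epithelium was present throughout.

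RefSeq promoter windows (GRCm38.p6, 250 bases before to 50 after the start of the gene) were matched for 4 of the 6 genes (not H2-Q1 and H2-T24). They are shown because these genes moved in the same direction between the stages. They were searched on both strands for 4 motifs known from class I and interferon-inducible promoters. These were the core of the interferon-stimulated response element (GAAA, any 2 bases, GAAA), an NF-kB core (GGG, any 2 bases, TT, any base, CC), TGACG (the core of the X2 box) and CCAAT, none of which overlapped another in these windows. Capitals mark the matches, and a match on the opposite strand appears as its reverse complement.
B2m, chr2:122147437-122147736, plus strand: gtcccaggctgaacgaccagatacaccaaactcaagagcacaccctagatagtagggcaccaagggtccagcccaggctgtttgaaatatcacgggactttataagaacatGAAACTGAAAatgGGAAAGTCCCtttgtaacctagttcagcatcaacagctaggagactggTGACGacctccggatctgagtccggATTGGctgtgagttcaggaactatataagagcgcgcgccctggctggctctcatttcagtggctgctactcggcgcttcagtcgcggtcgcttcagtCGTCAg
H2-Q2, chr17:35342057-35342356, plus strand: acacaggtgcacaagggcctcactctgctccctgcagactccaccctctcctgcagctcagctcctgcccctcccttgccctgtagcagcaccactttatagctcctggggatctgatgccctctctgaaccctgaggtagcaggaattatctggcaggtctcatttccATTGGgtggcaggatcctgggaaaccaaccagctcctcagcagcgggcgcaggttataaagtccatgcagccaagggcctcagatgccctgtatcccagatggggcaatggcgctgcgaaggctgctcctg
Psmb9, chr17:34187281-34187580, minus strand: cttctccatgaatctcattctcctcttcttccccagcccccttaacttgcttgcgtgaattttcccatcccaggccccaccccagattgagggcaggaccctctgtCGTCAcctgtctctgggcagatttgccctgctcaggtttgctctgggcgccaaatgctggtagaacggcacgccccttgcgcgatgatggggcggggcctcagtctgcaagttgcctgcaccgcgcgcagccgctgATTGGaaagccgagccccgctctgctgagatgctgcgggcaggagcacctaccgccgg
Calr, chr8:84846882-84847181, minus strand: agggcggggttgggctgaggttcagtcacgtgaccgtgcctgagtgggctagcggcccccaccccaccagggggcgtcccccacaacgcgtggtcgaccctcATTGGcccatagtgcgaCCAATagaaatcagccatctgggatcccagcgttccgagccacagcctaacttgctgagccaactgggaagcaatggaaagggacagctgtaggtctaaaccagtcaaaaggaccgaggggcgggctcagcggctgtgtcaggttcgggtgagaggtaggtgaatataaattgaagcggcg
The B2m window held all 4 motifs. Its GAAACTGAAA match lay at bases -139 to -130 from the start and GGAAAGTCCC (minus strand) at -126 to -117. A TGACG core followed at -78 to -74, with another on the minus strand at 45 to 49, and a CCAAT box on the minus strand at -53 to -49. H2-Q2 held a CCAAT box alone, at -81 to -77. Psmb9 held a TGACG core at -144 to -140 and a CCAAT box at -8 to -4, both on the minus strand. Calr held CCAAT at -131 to -127 and again on the minus strand at -148 to -144. Of 32851 RefSeq promoter windows of this length, 3.44% held the response element core, 4.79% the NF-kB core, 20.8% TGACG and 37.4% CCAAT. Of 31 class I pathway genes with a window, 5, 6, 15 and 22 held them in the same order. These matches describe the letters of the windows and do not show that any factor binds there.

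B2m, the gene of the shared light chain, was lower in tumors than in preneoplastic colon in both genotypes. In Kit-W/sh tumors it ranged from 9906 to 25049 CPM around a median of 12217, against 27695 and 28350 CPM in Kit-W/sh preneoplastic colon. In Kit-B6 tumors it ranged from 8457 to 19240 CPM around a median of 13044, against 51225, 52014 and 46164 CPM in Kit-B6 preneoplastic colon. In CPM after TMM scaling, every tumor was below every preneoplastic sample, also across genotypes. In bulk tissue, fewer cells of a type and less RNA per cell cannot be told apart. The tumor level fell by 0.98 ± 0.31 on the log2 scale in Kit-W/sh (edgeR quasi-likelihood test, Benjamini-Hochberg adjusted p = 0.0186) and by 1.90 ± 0.27 in Kit-B6 (adjusted p = 8.38e-05). B2m took 1.02% to 2.65% of all counts in Kit-W/sh tumors and 0.870% to 2.06% in Kit-B6 tumors. It took 2.46% to 2.52% in Kit-W/sh preneoplastic colon and 4.23% to 4.65% in Kit-B6 preneoplastic colon. By this unscaled share, the library labelled Kit-W/sh tumor 2, at 2.65%, was above both Kit-W/sh preneoplastic samples.

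**Figure D1:**
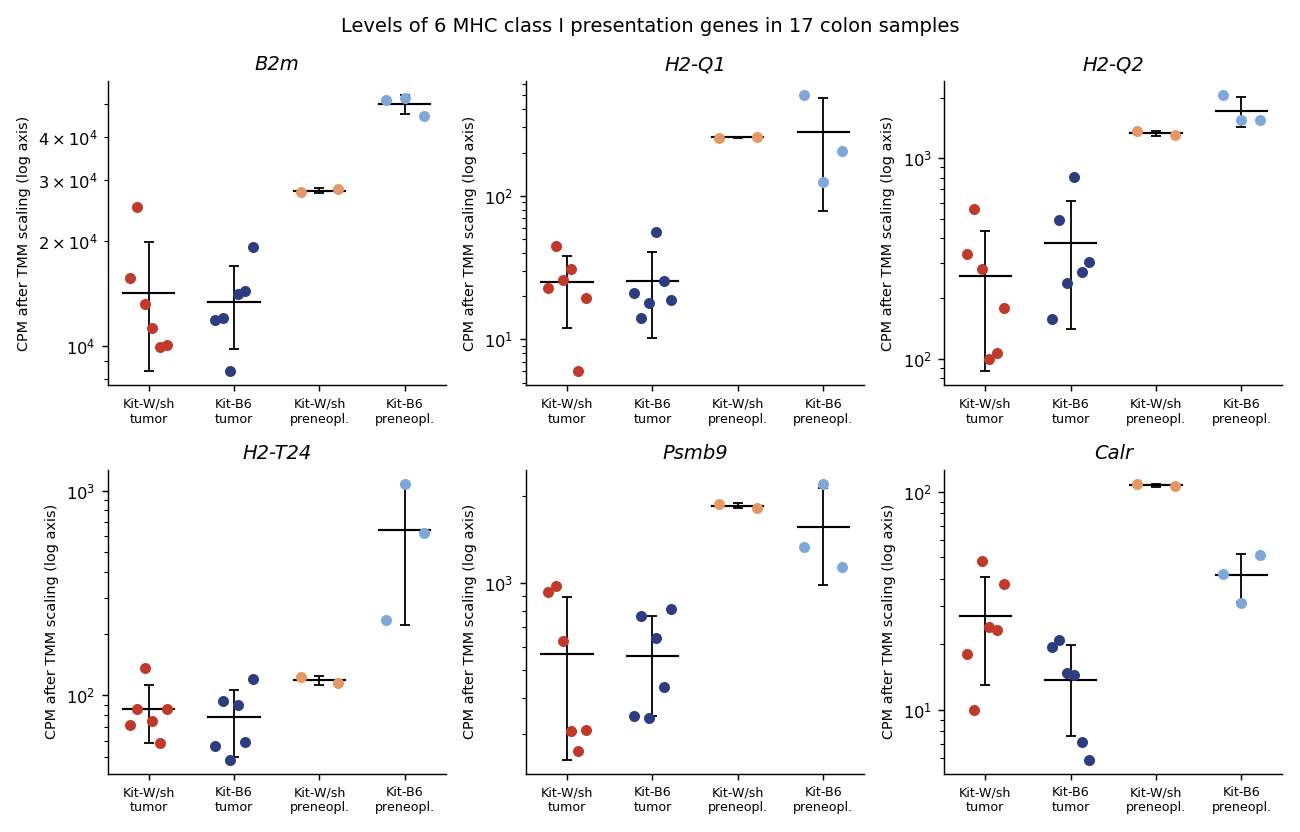
Level of each of the 6 genes (CPM after TMM scaling, log axis) in every sample of the 4 groups; points are samples, the horizontal line is the group mean and the bar is 1 SD. B2m, H2-Q1, H2-Q2, Psmb9 and Calr are lower in all tumors than in the preneoplastic samples of the same genotype, whereas H2-T24 is high in Kit-B6 preneoplastic colon alone.

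The B2m call in Kit-W/sh depended on how libraries were scaled. It was lost with unscaled library totals (adjusted p = 0.0702), with scaling to the reference genes (0.348) and with scaling to the last 9 gene rows (0.114). Leaving out either Kit-W/sh preneoplastic sample left that group with 1 library, assumed to vary like the other groups. The difference was then -0.997 without sample 1 and -0.962 without sample 2, beside -0.983 with both, and edgeR's adjusted p was 0.107 and 0.102. Relative to the median gene, whose change depends on the scaling, the B2m difference lay between -1.06 and -1.03 over 6 scalings in Kit-W/sh and between -1.90 and -1.87 in Kit-B6. A scaling shifts B2m and the median gene nearly alike, and the subtraction removes that shift. These narrow ranges therefore cannot show that the B2m call holds under other scalings. Without the subtraction, the Kit-W/sh difference was -0.729 with unscaled totals, -0.476 with the reference genes and -0.768 with the last 9 gene rows. The ratio of B2m to Epcam, which needs no scaling and was chosen after the levels were seen, was 498 ± 162 per 1000 in Kit-B6 tumors (SD, n = 6) and 1858 ± 218 per 1000 in Kit-B6 preneoplastic colon (SD, n = 3). In Kit-W/sh it was 336 to 1129 per 1000 in tumors, around a median of 471, against 946 and 1036 per 1000 in preneoplastic colon. The single overlap came from the library labelled Kit-W/sh tumor 2.

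H2-Q1 and H2-Q2, which encode heavy chains of the Qa region and lie side by side on chromosome 17, showed the widest gap between the stages in Kit-W/sh. H2-Q1 ranged from 5.99 to 44.7 CPM in Kit-W/sh tumors around a median of 24.4, against 253 and 256 CPM in Kit-W/sh preneoplastic colon. It ranged from 14.0 to 55.6 CPM in Kit-B6 tumors around a median of 19.9, against 504, 125 and 206 CPM in Kit-B6 preneoplastic colon. The groups did not overlap in either genotype, although H2-Q1 rested on 7 to 58 counts per tumor library. H2-Q1 fell by 3.34 ± 0.55 on the log2 scale in Kit-W/sh (edgeR adjusted p = 0.000426) and by 3.44 ± 0.51 in Kit-B6 (adjusted p = 0.000117).

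H2-Q2 ranged from 99.5 to 555 CPM in Kit-W/sh tumors around a median of 230.3, against 1358 and 1298 CPM in Kit-W/sh preneoplastic colon. In Kit-B6 tumors it ranged from 158 to 801 CPM around a median of 287, against 2063, 1542 and 1553 CPM in Kit-B6 preneoplastic colon. All tumors lay below all preneoplastic samples. H2-Q2 fell by 2.35 ± 0.54 on the log2 scale in Kit-W/sh (edgeR adjusted p = 0.00361) and by 2.19 ± 0.49 in Kit-B6 (adjusted p = 0.00260). H2-Q4, the next gene along the chromosome, differed by -0.24 ± 0.38 in Kit-W/sh (adjusted p = 0.629) and -0.48 ± 0.33 in Kit-B6 (adjusted p = 0.246). The ratio of H2-Q2 to H2-Q4, chosen after the levels were seen, was 171 to 357 per 1000 in Kit-W/sh tumors, against 1102 to 1320 per 1000 in Kit-W/sh preneoplastic colon. In Kit-B6 it was 198 to 1010 per 1000 in tumors, against 1060 to 1446 per 1000 in preneoplastic colon, so the ratios did not overlap in either genotype. Amplicons of the H2 family can capture reads of near-identical relatives, so H2-Q1, H2-Q2 and H2-T24 are uncertain as single genes.

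H2-T24, which encodes a non-classical heavy chain of the T region, fell in Kit-B6 tumors and was not called in Kit-W/sh tumors, although the test of that contrast, given with the interaction, did not pass after adjustment. In Kit-W/sh tumors it ranged from 58.2 to 136 CPM around a median of 80.0, against 123 and 114 CPM in Kit-W/sh preneoplastic colon, and the groups overlapped. In Kit-B6 tumors it ranged from 48.3 to 120 CPM around a median of 74.3, against 233, 1081 and 619 CPM in Kit-B6 preneoplastic colon. The Kit-W/sh difference was -0.47 ± 0.45 on the log2 scale (95% interval -1.42 to 0.47, edgeR adjusted p = 0.409), and its sign turned with scaling to the reference genes (0.04). In Kit-B6 the gene fell by 3.05 ± 0.38 (adjusted p = 2.62e-05).

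Psmb9, which encodes an interferon-inducible catalytic subunit of the immunoproteasome and lies next to the transporter gene Tap1, was also lower in tumors. It ranged from 261 to 972 CPM in Kit-W/sh tumors around a median of 468, against 1874 and 1822 CPM in Kit-W/sh preneoplastic colon. In Kit-B6 tumors it ranged from 340.5 to 809 CPM around a median of 539, against 1328, 2208 and 1132 CPM in Kit-B6 preneoplastic colon. No tumor reached the preneoplastic level. Psmb9 fell by 1.70 ± 0.46 on the log2 scale in Kit-W/sh (edgeR adjusted p = 0.00865) and by 1.48 ± 0.41 in Kit-B6 (adjusted p = 0.00961). With 1 Kit-W/sh preneoplastic library left, assumed to vary like the other groups, the difference was -1.68 without sample 1 (adjusted p = 0.0699) and -1.72 without sample 2 (0.0554). Without Kit-B6 preneoplastic sample 2 the Kit-B6 difference was -1.14 (adjusted p = 0.0738). Both calls were lost with scaling to the reference genes (0.0865 for Kit-W/sh and 0.0792 for Kit-B6).

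Subunits of the constitutive proteasome were not called lower. Of 13 tested subunits of the constitutive 20S core, 0 were called for Kit-W/sh and 0 for Kit-B6 by edgeR, with 1 and 0 at an unadjusted p under 0.05, a level that 49.4% and 51.8% of all genes reached in those comparisons. Psmb6, the constitutive subunit that Psmb9 replaces, differed by 0.25 ± 0.31 on the log2 scale in Kit-W/sh (adjusted p = 0.531) and 0.16 ± 0.26 in Kit-B6 (adjusted p = 0.653). The ratio of Psmb9 to Psmb6, chosen after the levels were seen, was 64.3 ± 37.0 per 1000 in Kit-W/sh tumors (SD, n = 6) and 246 ± 5.62 per 1000 in Kit-W/sh preneoplastic colon (SD, n = 2). In Kit-B6 it was 31.8 to 226 per 1000 in tumors around a median of 63.4, against 160 to 235 per 1000 in preneoplastic colon, and Kit-B6 tumor 2 was the tumor that overlapped. Psmb10, another immunoproteasome subunit, fell by 0.93 ± 0.32 in Kit-W/sh (adjusted p = 0.0304) and had a difference of -0.66 ± 0.28 in Kit-B6 (adjusted p = 0.0727). Psme2, a subunit of the interferon-inducible 11S activator, fell by 0.72 ± 0.17 in Kit-W/sh (adjusted p = 0.00406) and by 0.72 ± 0.15 in Kit-B6 (adjusted p = 0.00150). Psme1, another subunit of that activator, was called in neither genotype. Its mean was 3173 CPM in tumors and 3395 CPM in preneoplastic colon for Kit-W/sh. For Kit-B6 the means were 3303 and 4045 CPM in the same order. Of 20 subunits of the 19S cap, 10 rose in Kit-W/sh and 9 rose in Kit-B6 by edgeR, where 20.9% and 22.2% of all genes rose. Those proteasome lists were drawn up after the data had been seen.

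Calr encodes calreticulin, a lectin chaperone of the endoplasmic reticulum that holds newly made heavy chains in the loading complex. It was sparse, with 5 to 59 counts per tumor library and 17 to 77 per preneoplastic library. In Kit-W/sh tumors it ranged from 10.03 to 48.1 CPM around a median of 23.5, against 109 and 106 CPM in Kit-W/sh preneoplastic colon. In Kit-B6 tumors it ranged from 5.90 to 20.9 CPM around a median of 14.6, against 42.2, 30.8 and 51.2 CPM in Kit-B6 preneoplastic colon. Tumors were below the preneoplastic samples of their own genotype, but the highest Kit-W/sh tumors overlapped Kit-B6 preneoplastic colon. Calr fell by 2.00 ± 0.49 on the log2 scale in Kit-W/sh (edgeR adjusted p = 0.00520) and by 1.59 ± 0.47 in Kit-B6 (adjusted p = 0.0132). The Kit-B6 call was lost without Kit-B6 preneoplastic sample 3 (adjusted p = 0.0607), and both calls with scaling to the reference genes (0.0586 for Kit-W/sh and 0.0745 for Kit-B6).

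Canx and Pdia3, whose products work with calreticulin, were not called lower. Canx, the gene of the related chaperone calnexin, differed by 0.38 ± 0.18 in Kit-W/sh (adjusted p = 0.103) and 0.21 ± 0.15 in Kit-B6 (adjusted p = 0.288). Pdia3, a disulfide isomerase of the loading complex, rose by 0.50 ± 0.19 in Kit-W/sh (adjusted p = 0.0434) and differed by 0.26 ± 0.16 in Kit-B6 (adjusted p = 0.186). The ratio of Calr to Canx, chosen after the levels were seen, was 2.00 to 6.77 per 1000 in Kit-W/sh tumors, against 19.7 to 20.3 per 1000 in Kit-W/sh preneoplastic colon. It was 1.15 to 3.33 per 1000 in Kit-B6 tumors, against 5.61 to 9.42 per 1000 in Kit-B6 preneoplastic colon. Atf4, a transcription factor of the integrated stress response, was the other gene of the chaperone and stress list that fell, by 0.83 ± 0.24 in Kit-W/sh (adjusted p = 0.0122) and by 1.48 ± 0.21 in Kit-B6 (adjusted p = 8.38e-05).

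In all, 5 of the 6 genes fell in Kit-W/sh, where 18.8% of 869 tested genes were called lower, and 6 of 6 fell in Kit-B6, where 18.9% were. Their median change was -1.85 for Kit-W/sh and -2.05 for Kit-B6, beside medians over all tested genes of 0.08 for Kit-W/sh and -0.0027 for Kit-B6. In Kit-W/sh, 5 of the 6 did not overlap between the stages, and 58.2% of all genes did not either (28.7% with tumors lower). In Kit-B6 the count was 6 of 6, against 29.3% of all genes (13.1% with tumors lower). The members, like the gene lists below, were chosen with earlier results of these data known. Counts set beside the shares of all genes therefore describe them and do not test them. Without the library labelled Kit-W/sh tumor 2 the same 5 were called in Kit-W/sh, with B2m at -1.22, H2-Q1 at -3.59, H2-Q2 at -2.73, Psmb9 at -1.92 and Calr at -1.83. Calls in either direction covered 39.7% of genes for Kit-W/sh and 41.1% for Kit-B6, so the stages differed widely. Higher calls made up 52.8% of all calls in Kit-W/sh with TMM scaling. That share was 70.1% with unscaled totals, 82.6% with the reference genes and 67.3% with the last 9 gene rows. In Kit-B6 the shares were 54.1%, 73%, 74.7% and 52.5% in the same order.

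**Figure D2:**
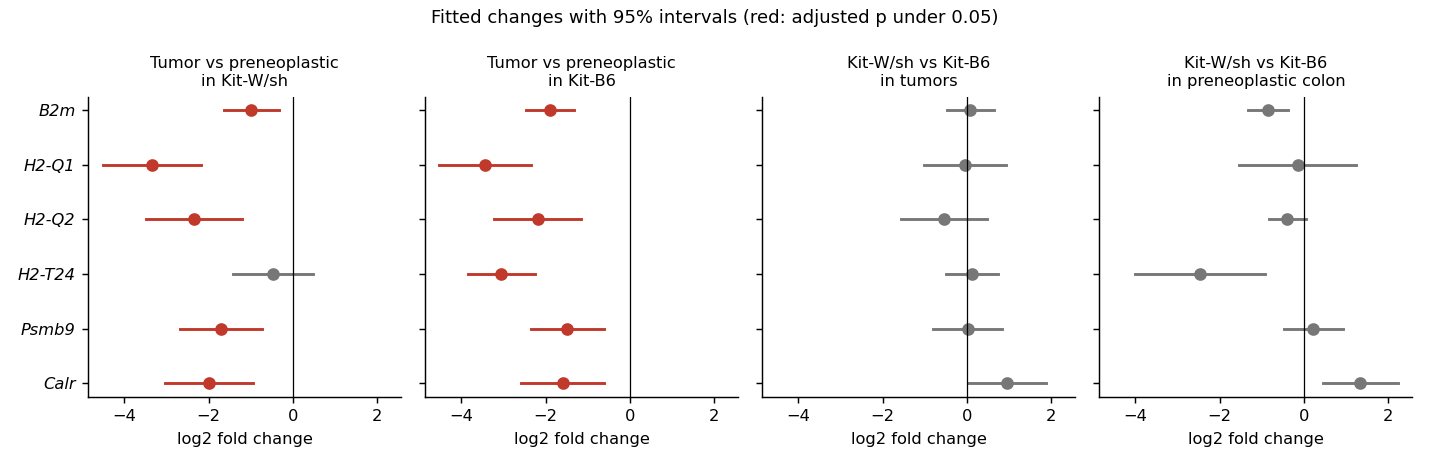
Fitted log2 fold change of each gene with its 95% interval in 4 comparisons, tumor over preneoplastic colon in each genotype and Kit-W/sh over Kit-B6 at each stage; red marks an adjusted p under 0.05 over all tested genes. Of the 12 intervals between stages, 11 lie below 0 and are red, and none of the 12 intervals between genotypes is red.

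The wider class I pathway was described by a list of 44 genes, of which the panel measured 35 and 29 passed the filter on low counts. In Kit-W/sh tumors 10 fell and 2 rose, and in Kit-B6 tumors 13 fell and 2 rose, with median changes of -0.47 and -0.72. The list holds all 6 members, so these counts partly repeat the falls given above. Members made up 5 of the 10 falls for Kit-W/sh, and 6 of the 13 for Kit-B6. The Kit-W/sh median was the value of H2-T24, itself a member. Over all tested genes, 18.8% were called lower for Kit-W/sh, beside 18.9% for Kit-B6. The classical heavy chain gene H2-D1 fell by 1.15 ± 0.40 on the log2 scale in Kit-W/sh (edgeR adjusted p = 0.0314) and by 0.95 ± 0.35 in Kit-B6 (adjusted p = 0.0414). H2-K1, the other classical heavy chain gene, fell by 1.11 ± 0.31 in Kit-B6 (adjusted p = 0.0105) and differed by -0.61 ± 0.36 in Kit-W/sh (adjusted p = 0.183). Among 14 tested non-classical heavy chain genes, 3 fell and 1 rose in Kit-W/sh and 7 fell and 2 rose in Kit-B6. The members H2-Q1 and H2-Q2 were among the falls in both genotypes, and H2-T24 was in Kit-B6. The 3 falls in Kit-W/sh were near the 18.8% share of all tested genes called lower there. H2-T22, a ligand of gamma delta T cells, fell by 0.97 ± 0.32 in Kit-W/sh (adjusted p = 0.0262) and by 1.32 ± 0.28 in Kit-B6 (adjusted p = 0.00199).

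Not every gene of the pathway went down. Cd1d1, which presents lipids rather than peptides, rose by 1.03 ± 0.38 in Kit-W/sh (adjusted p = 0.0416) and by 1.38 ± 0.34 in Kit-B6 (adjusted p = 0.00429). H2-M9, the other riser in Kit-B6, had 36 counts over the 6 Kit-B6 tumors and 0 in the 3 Kit-B6 preneoplastic samples. H2-Bl was the reverse, with 0 counts in Kit-B6 tumors and 46 in Kit-B6 preneoplastic colon. Tap1, which encodes a subunit of the peptide transporter, differed by -0.97 ± 0.54 in Kit-W/sh (adjusted p = 0.159) and -0.83 ± 0.48 in Kit-B6 (adjusted p = 0.169). Tapbpl, the gene of the peptide editor TAPBPR, fell by 0.74 ± 0.24 in Kit-W/sh (adjusted p = 0.0227) and differed by -0.34 ± 0.21 in Kit-B6 (adjusted p = 0.209).

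**Figure D3:**
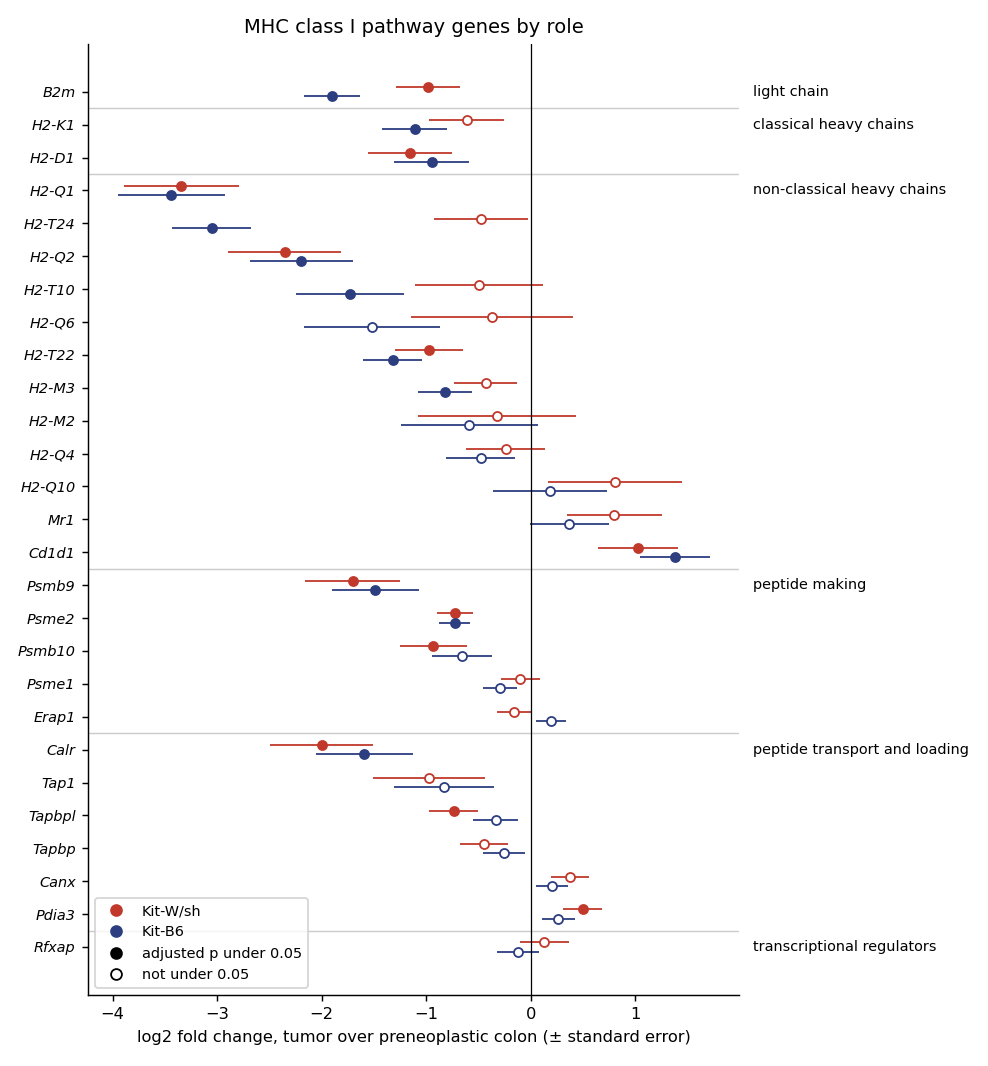
Log2 fold change (± standard error) of tumors over preneoplastic colon for 27 tested class I pathway genes, grouped by role, in Kit-W/sh (red) and Kit-B6 (blue); filled points have an adjusted p under 0.05, and H2-M9 and H2-Bl are left out because a whole group had 0 counts. H2-Q1, H2-Q2, Psmb9 and Calr lie far left within their roles in both genotypes, and H2-T24 does so in Kit-B6 alone.

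Some genes of interferon response and of other antigen presentation were called between the stages as well. Of 25 tested interferon and regulator genes, 9 fell and 1 rose in Kit-W/sh, where 18.8% of all tested genes were called lower and 20.9% higher. In Kit-B6 10 fell and 3 rose, where 18.9% of all tested genes were called lower and 22.2% higher. The medians of the list were -0.84 and -0.66, beside 0.08 and -0.0027 over all tested genes. Irf1, an interferon-induced activator of class I genes, fell by 1.77 ± 0.25 in Kit-W/sh (edgeR adjusted p = 0.000136) and by 1.28 ± 0.22 in Kit-B6 (adjusted p = 0.000419). Ifitm3, also among the genes with the smallest p of this list in both genotypes, was higher in tumors instead. Its mean level for Kit-W/sh was 14800 CPM at the tumor stage and 1494 CPM at the preneoplastic stage. For Kit-B6 the means were 13811 and 3210 CPM in the same order. Of 9 MHC class II genes, 4 fell for Kit-W/sh and 6 for Kit-B6, and none rose. H2-Aa, the alpha chain of I-A, fell by 2.02 ± 0.44 in Kit-W/sh (adjusted p = 0.00254) and by 1.83 ± 0.40 in Kit-B6 (adjusted p = 0.00217).

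Levels of several cell type markers differed between the stages too. Of 10 tested CD8 T and natural killer cell genes, 3 fell for Kit-W/sh and 4 for Kit-B6, where 18.8% and 18.9% of all tested genes were called lower. The 13 measured include Cd3d, Cd3e and Cd3g, which are not particular to CD8 T cells among T cells. The sum of the 13 was 255 to 909 CPM in Kit-W/sh tumors, against 687 to 1008 CPM in Kit-W/sh preneoplastic colon. In Kit-B6 it was 161 to 601 CPM in tumors, against 543 to 1159 CPM in preneoplastic colon. The sum of 6 B cell markers was 15.1 to 107 CPM in Kit-W/sh tumors, against 127 to 273 CPM in Kit-W/sh preneoplastic colon. In Kit-B6 it was 29.8 to 613 CPM in tumors, against 128 to 2513 CPM in preneoplastic colon, and Cd79a, a signalling chain of the B cell receptor, was at 0 in some tumors of each genotype and in 1 of the 2 Kit-W/sh preneoplastic samples. The sum of 5 macrophage markers was 2031 to 3588 CPM in Kit-W/sh tumors, against 1230 to 1456 CPM in Kit-W/sh preneoplastic colon. In Kit-B6 it was 1350 to 3159 CPM in tumors, against 1141 to 1181 CPM in preneoplastic colon, so the stages did not overlap in either genotype. Of the 5 macrophage genes, 3 rose and 1 fell for Kit-W/sh, and 2 rose and 1 fell for Kit-B6. The sum of 3 neutrophil markers was also higher in tumors, at 271 to 758 CPM in Kit-W/sh tumors, 61.8 to 257 CPM in Kit-B6 tumors, 7.24 to 15.1 CPM in Kit-W/sh preneoplastic colon and 6.20 to 12.8 CPM in Kit-B6 preneoplastic colon. The sum of 2 stromal markers was 4492 to 7279 CPM in Kit-W/sh tumors and 2782 to 11427 CPM in Kit-B6 tumors, against 1613 to 3338 CPM in Kit-W/sh and 1646 to 3308 CPM in Kit-B6 preneoplastic colon. Ptprc, the pan-leukocyte gene, was not called in Kit-W/sh (0.69 ± 0.50, adjusted p = 0.279) or Kit-B6 (-0.50 ± 0.41, adjusted p = 0.329). Epcam was not called either (-0.08 ± 0.18, adjusted p = 0.752 in Kit-W/sh and 0.02 ± 0.16, adjusted p = 0.911 in Kit-B6). The part of these cell types in the class I differences was not tested.

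Between genotypes in preneoplastic colon, B2m and H2-T24 were lower and Calr higher in both Kit-W/sh samples than in all 3 Kit-B6 samples, but none of the 6 genes passed the test over all genes. B2m averaged 28022 ± 463 CPM in Kit-W/sh (SD, n = 2) and 49801 ± 3174 CPM in Kit-B6 (SD, n = 3), a log2 difference of -0.85 ± 0.19 (edgeR unadjusted p = 0.00392, adjusted p = 0.253). H2-T24 averaged 119 ± 6.20 CPM in Kit-W/sh and 644 ± 425 CPM in Kit-B6, a log2 difference of -2.46 ± 0.64 (edgeR adjusted p = 0.288). Calr averaged 107 ± 1.80 CPM in Kit-W/sh and 41.4 ± 10.2 CPM in Kit-B6, a log2 difference of 1.34 ± 0.37 (edgeR adjusted p = 0.313). H2-Q2 did not overlap between the genotypes either (-0.40 ± 0.19, adjusted p = 0.478), so 4 of the 6 genes did not, beside 29.7% of all 777 tested genes (13.4% lower in Kit-W/sh). H2-Q1 (-0.15 ± 0.57, adjusted p = 0.944) and Psmb9 (0.23 ± 0.29, adjusted p = 0.814) overlapped.

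The edgeR test called 1 of the 777 genes in that comparison (0.129%), with 83 (10.7%) at an unadjusted p under 0.05, and DESeq2 called 20 (2.57%). DESeq2 called B2m (adjusted p = 0.000155) and H2-T24 (adjusted p = 0.00199) among them. The exact permutation test of 2 samples against 3 cannot give a two-sided p below 0.1, which B2m, H2-Q2 and Calr reached. H2-T24 had an exact p of 0.2. Without Kit-B6 preneoplastic sample 1, edgeR called 16 genes and H2-T24 was among them (adjusted p = 0.00977). With scaling to the reference genes it called 26, again with H2-T24 (adjusted p = 4.72e-06).

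The gene that edgeR called was Irf7, an interferon-inducible transcription factor, at 997 and 1160 CPM in Kit-W/sh against 3853, 4538 and 5016 CPM in Kit-B6 (-2.07 ± 0.20, adjusted p = 0.0237). Oas3, an interferon-induced antiviral enzyme gene, stood at 172 and 128 CPM in Kit-W/sh against 495, 1123 and 1294 CPM in Kit-B6 (-2.72 ± 0.46, adjusted p = 0.228). Irf1 ran the other way (0.56 ± 0.16, adjusted p = 0.327). Of 24 tested interferon genes, 12 lay lower and 12 higher in Kit-W/sh, and 11 had an unadjusted p under 0.05, a level that 10.7% of all tested genes reached. The class I list had 19 of 27 lower, with 0 called and 6 at an unadjusted p under 0.05.

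The 3 Kit-B6 preneoplastic samples differed in their leukocyte content. Over samples 1, 2 and 3, Ptprc had 150, 726 and 389 CPM, and the 6 B cell markers summed to 128, 2513 and 851 CPM. In Kit-W/sh samples 1 and 2 Ptprc had 233 and 201 CPM and the B cell sum was 273 and 127 CPM. H2-T24, at 233, 1081 and 619 CPM, followed the same order over the Kit-B6 samples, whereas B2m, at 51225, 52014 and 46164 CPM, did not. Kit-B6 sample 1, with the lowest Ptprc of the 5, had more H2-T24, B2m, Oas3 and Irf7 than either Kit-W/sh sample. The part of leukocyte content in the H2-T24 difference was not tested.

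**Figure D4:**
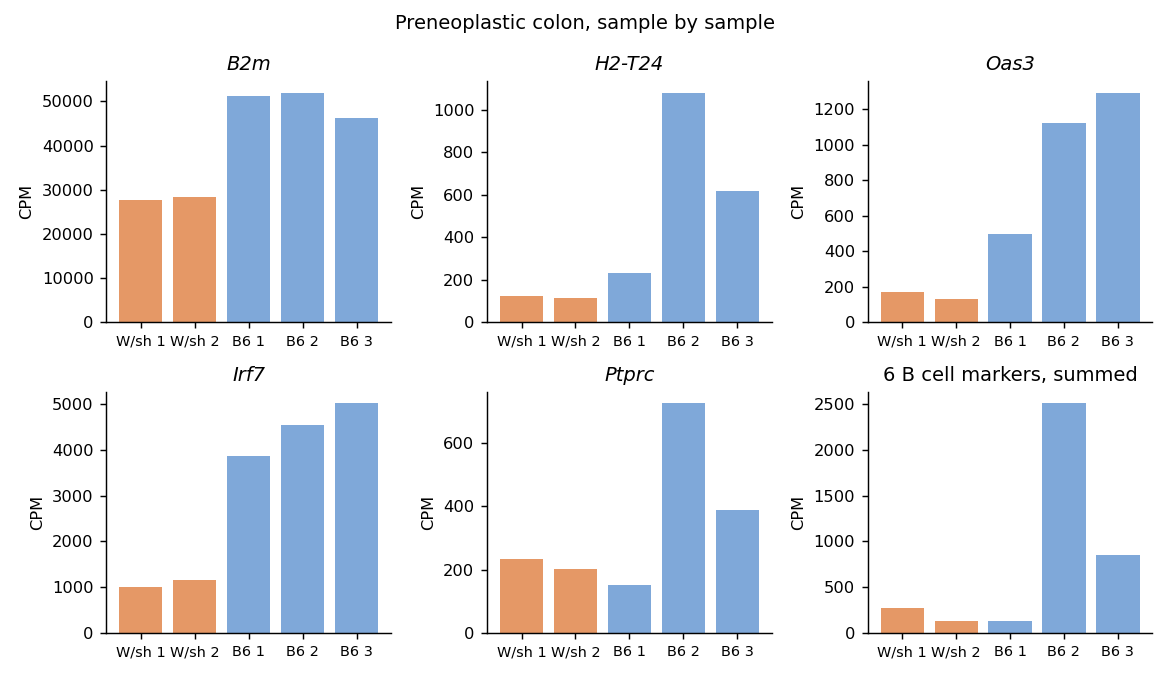
Level (CPM, linear axes from 0) of B2m, H2-T24, Oas3, Irf7 and Ptprc and the sum of 6 B cell markers in each of the 5 preneoplastic samples, Kit-W/sh in orange and Kit-B6 in blue. B2m, H2-T24, Oas3 and Irf7 are higher in every Kit-B6 sample, whereas Ptprc and the B cell sum are high in Kit-B6 samples 2 and 3 and not in sample 1.

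Whether the genotype difference changed with stage was asked with an interaction test, for which edgeR called 0 of 869 genes (0%), with 63 (7.25%) at an unadjusted p under 0.05, and DESeq2 called 1 (0.115%). H2-T24 had an interaction of 2.58 ± 0.63 on the log2 scale (95% interval 1.24 to 3.91, edgeR unadjusted p = 0.000833, adjusted p = 0.515). It was the gene that DESeq2 called (adjusted p = 0.0351), and edgeR called it without Kit-B6 preneoplastic sample 1 (adjusted p = 0.0269). B2m had an interaction of 0.92 ± 0.43 (edgeR unadjusted p = 0.0481, adjusted p = 0.660). For H2-Q1 (0.09 ± 0.80), H2-Q2 (-0.16 ± 0.78), Psmb9 (-0.22 ± 0.65) and Calr (-0.41 ± 0.72) the standard error exceeded the estimate.

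In tumors the genotypes overlapped for all 6 genes, and 0.626% of all genes did not overlap. B2m averaged 14181 ± 5752 CPM over the Kit-W/sh tumors and 13336 ± 3583 CPM over the Kit-B6 tumors (SD, n = 6 each). Its log2 difference was 0.08 ± 0.26, with a 95% interval of -0.47 to 0.64. H2-Q1 averaged 24.9 ± 12.8 CPM over the Kit-W/sh tumors and 25.5 ± 15.2 CPM over the Kit-B6 tumors. H2-Q2 averaged 259 ± 173 CPM over the Kit-W/sh tumors and 376 ± 235 CPM over the Kit-B6 tumors, a log2 difference of -0.54 ± 0.48. H2-T24 averaged 85.3 ± 26.8 CPM over the Kit-W/sh tumors and 77.9 ± 27.8 CPM over the Kit-B6 tumors. Psmb9 averaged 567 ± 324 CPM over the Kit-W/sh tumors and 556 ± 210.3 CPM over the Kit-B6 tumors. None of these 5 genes had a two-sided exact permutation p under 0.05 for the difference of mean log2(CPM + 1). The p-values of that test were 0.844, 0.879, 0.268, 0.574 and 0.812 in that order.

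Calr was the member with the clearest genotype gap in tumors, and it too failed the adjusted test. It averaged 26.8 ± 13.8 CPM over the Kit-W/sh tumors and 13.7 ± 6.17 CPM over the Kit-B6 tumors (SD, n = 6 each). The log2 difference was 0.95 ± 0.43 (95% interval 0.02 to 1.87, edgeR unadjusted p = 0.0452, adjusted p = 0.363), and the exact permutation p was 0.0693. Without the library labelled Kit-W/sh tumor 2, which had the lowest Calr of its group, the exact permutation p was 0.0130 and the edgeR adjusted p 0.154. B2m was then at -0.17 and H2-Q2 at -0.93 (edgeR adjusted p = 0.696 and 0.279). Over all 799 tested genes edgeR called 0 (0%), with 109 (13.6%) at an unadjusted p under 0.05, and DESeq2 called 24 (3%), none of them a member.

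Tumors of the same genotype varied widely. Among Kit-W/sh tumors, samples 4, 5 and 6 held the 3 lowest values of B2m, H2-Q2 and Psmb9 in the group, and 3 of the 4 highest values of Calr over all 12 tumors. The library labelled Kit-W/sh tumor 2 had the highest B2m and Psmb9 of the 12 tumors and the second highest H2-Q1 and H2-Q2. The 13 genes listed for CD8 T and natural killer cells summed to 909 CPM in that library, against 255 to 320 CPM in the other 5 Kit-W/sh tumors. Cd3d, Cd3e and Cd3g, which mark T cells of any kind, held 150, 151 and 221 CPM of that sum. The CD8 chain gene Cd8a stood at 33.9 CPM. The part of T and natural killer cells in the class I levels of that library was not tested. Kit-B6 tumor 4 had the highest H2-Q1 and H2-Q2 of all tumors, at 55.6 and 801 CPM, together with the lowest Ptprc, at 85.4 CPM. Leaving out both of these tumors made the genotype difference of B2m -0.15, that of Psmb9 -0.16 and that of H2-Q1 0.08, none of them called.

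**Figure D5:**
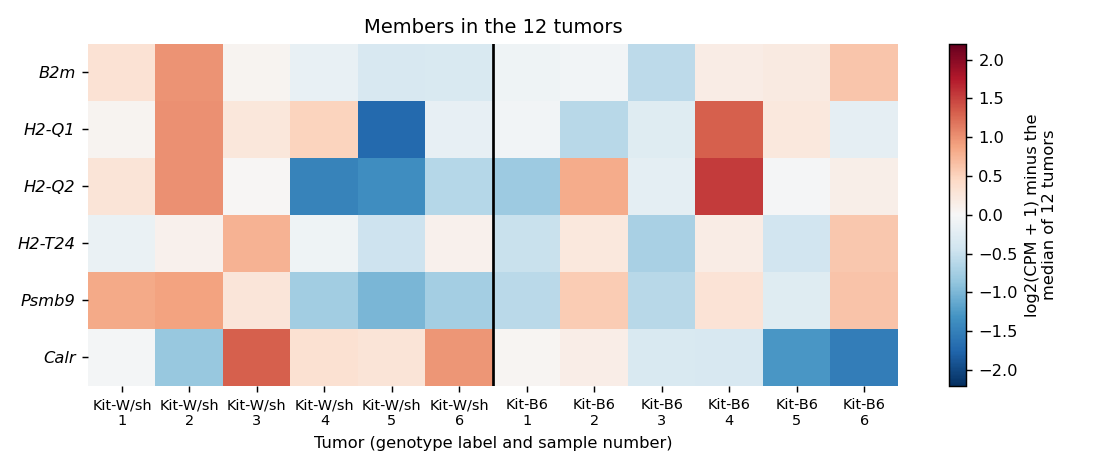
Heat map of the 6 genes in the 12 tumors, as log2(CPM + 1) minus the median of the 12; Kit-W/sh tumors stand left and Kit-B6 tumors right of the black line. H2-Q1 and H2-Q2 are both highest in Kit-B6 tumor 4, with the library labelled Kit-W/sh tumor 2 next, and Calr is low while Psmb9 is high in that library and in Kit-B6 tumor 6.

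The genes whose profiles over the 17 libraries lay nearest to each member split the 6 into several patterns. Likeness was measured as the root mean square difference between centred log2(CPM + 1) profiles over 869 genes, without a test. The genes nearest to B2m were Sp100 (0.37), a nuclear body protein gene, H2-T22 (0.37) and Adar (0.40), an RNA-editing enzyme gene. The genes nearest to H2-T24 were Oas3 (0.47), Sp100 (0.53) and Oas1a (0.57), and Oas genes encode interferon-induced sensors of double-stranded RNA. The genes nearest to Psmb9 were Zbp1 (0.39), a sensor of Z-form nucleic acid, its chromosomal neighbour Tap1 (0.39) and the cytotoxic granule gene Nkg7 (0.42).

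H2-Q1 and H2-Q2 had other neighbours. H2-Q2 lay nearest to Abcg2 (0.41), an efflux transporter gene, Myo15b (0.42) and Ceacam20 (0.44), an adhesion molecule gene, and H2-Q1 to Abcg2 (0.79), Ceacam20 (0.80) and the glutathione transferase gene Gstt1 (0.81). H2-Q2 was itself the 4th nearest of H2-Q1. Abcg2 fell by 2.53 ± 0.43 on the log2 scale in Kit-W/sh tumors (edgeR adjusted p = 0.000521) and by 2.12 ± 0.39 in Kit-B6 tumors (adjusted p = 0.000610). Its genotype difference in preneoplastic colon was -0.04 ± 0.24 (adjusted p = 0.959), whereas that of Sp100 was -1.43 ± 0.24 (adjusted p = 0.228). The genes nearest to Calr were Sigirr (0.47), an inhibitor of interleukin-1 receptor signals, the chromatin protein gene Hmgb1 (0.61) and Zc3h7a (0.64). Psmb9, the member most like Calr, ranked 230th among its neighbours, whereas Psmb9 was the 11th nearest to B2m.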

How the data were processed

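RNA of 17 colon samples was amplified with a QIAseq targeted panel of mouse immuno-oncology genes, a multiplex PCR assay, and read on a MiSeq, as the labels' protocols state. Each sample came with its own table of counts by gene, as deposited by the authors, without a statement whether these are reads or tags. Both mm9 and DESeq2 appear in the submitters' processing notes, with no version or role. The aligner and the counter are not given in the sources used here, and amplicon positions were not used. Each table held 993 entries, and 5 genomic DNA controls, at 0 in every library, were left out. Groups came from the sample titles. No pair of libraries within a group agreed within sampling noise (lowest chi-square per degree of freedom 13.0).

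Counts were tested in R 4.3.3 with edgeR 4.0.16 (TMM scaling, robust two-sided quasi-likelihood test, genes kept by filterByExpr at min.count 10 and min.total.count 15), with Benjamini-Hochberg adjustment over all genes tested and a threshold of 0.05. Stage and interaction came from 1 fit of all 17 libraries, and genotype from the libraries of each stage. Changes are log2 fold change ± standard error. Exact permutation tests used mean log2(CPM + 1). DESeq2 1.42.0, other scalings, no low-count filter, other sets of samples and a replicate block were alternatives. Named genes were the members, Kit, Cpa3, some but not all of the genes with the smallest p of each list, and the 3 nearest profiles per member. Other pathway genes, Psmb6, Irf7, Oas3 and the ratios were picked with their values in view. The members and lists were chosen with earlier results of these data known. Counting covers sampling error only, since amplified reads are not independent molecules. A B cell marker was left out of the sums and is not reported here.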

Additional observations from a re-analysis of the deposited data

How the results depend on the processing

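Between the stages, every member kept its sign under every alternative, except H2-T24 in Kit-W/sh, which had 0.040 with scaling to the reference genes. That scaling, which rested mostly on Rpl13a, left 2 members called in Kit-W/sh, and the cause was not tested. Leaving out 1 sample at a time gave 132 to 385 genes and 3 to 5 members called in Kit-W/sh, with the fewest when 1 of the 2 preneoplastic samples was left, a lone sample assumed to vary like the other groups, and 265 to 425 genes and 5 to 6 members in Kit-B6. In preneoplastic colon, the genotype test called 20 genes and 2 members with DESeq2, 26 genes and 1 member with the reference genes, and 0 genes with unscaled totals, the last 9 gene rows, the replicate block or the fit of all 17 libraries. Without single samples it called 0 to 16 genes and 0 to 1 member, and H2-Q1 had -0.50 to 0.59. For the interaction, DESeq2 called 1 gene, a member, and leaving out single samples gave 0 to 2 genes and 0 to 1 member. H2-Q2 had an interaction of 0.098 with the reference genes and 0.092 with the last 9 gene rows. Over single samples left out, the interaction had -0.54 to 0.21 for H2-Q2 and -0.68 to 0.47 for H2-Q1.

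In tumors, DESeq2 called 24 genes, and 15 were called without both tumors that stand apart (the library labelled Kit-W/sh tumor 2 and Kit-B6 tumor 4, a choice made after seeing the data), with B2m at -0.15, H2-Q1 at 0.083 and Psmb9 at -0.16. Psmb9 had -0.0030 with DESeq2, -0.0021 with DESeq2 size factors, -0.011 with class I genes left out of the library sizes and -0.11 with the replicate block. H2-Q1 had 0.024 with unscaled totals, 0.26 with the reference genes and 0.096 with the last 9 gene rows. Leaving out single samples gave -0.17 to 0.21 for B2m, -0.30 to 0.31 for H2-Q1, -0.087 to 0.28 for H2-T24 and -0.21 to 0.15 for Psmb9. For differences of mean log2(CPM + 1), the reference genes gave 0.11 for H2-Q1 and 0.11 for Psmb9. The last 9 gene rows gave 0.94 for Calr (exact permutation p = 0.0476). Single samples left out gave -0.13 to 0.16 for B2m, -0.29 to 0.26 for H2-Q1, -0.29 to 0.09 for Psmb9 and 0.69 to 1.12 for Calr.

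The replicate numbers showed no consistent pairing of the samples, although these correlations cannot exclude that some were paired. Same-numbered samples had correlations of their deviations from the group means of -0.195 to 0.390 between tumors of the 2 genotypes, and of -0.099 and -0.137 between preneoplastic samples. Between tumors and preneoplastic samples of a genotype they were 0.059 and -0.112 in Kit-W/sh and -0.011, 0.395 and 0.069 in Kit-B6. With the number as a block, 250 genes were called between stages for Kit-W/sh and 276 for Kit-B6, and B2m in Kit-W/sh (adjusted p = 0.0931) and Psmb9 (0.0648) and Calr (0.0589) in Kit-B6 were not called. Depth limits Calr and H2-Q1 most, with tumor counts as low as 5 and 7.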
